A study of Mus musculus with 15 samples.

Results

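Vcam1, Icam1 and the interleukin-1 family genes were described in whole ovaries of HSD17B1-KI and WT mice as 8 genes: the adhesion molecules Vcam1 and Icam1, the integrin subunit Itga4, the ligands Il1b and Il33, the receptor antagonist Il1rn, and the receptors Il1r1 and Il1rl1. They were taken by gene name from a table of 27907 genes, and all 8 passed the filter on low values that left 21525 genes for testing. HSD17B1-KI females are homozygous for a point mutation that changes serine 143 of the estrogen-forming enzyme HSD17B1 to alanine, carried in the germline and so not limited to the ovary, and WT females from the same heterozygous breeding served as controls. The ovaries of 7 HSD17B1-KI and 8 WT females, all 6 months old and in estrus, gave 1 mRNA library per mouse. A point mutation leaves the transcript in place, so that the level of Hsd17b1 cannot check the labels. Vcam1 is among the genes that the study singled out in these same libraries, and the 8 genes were chosen with earlier results of these data known, so that their differences below are not independent of that choice.

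VCAM1 and ICAM1 are immunoglobulin-type receptors on the cell surface. Cytokines raise both on endothelium through NF-kB, and circulating leukocytes bind them through integrins, VCAM1 through integrin alpha 4 (Itga4) paired with beta 1 or beta 7, and ICAM1 through beta 2 integrins. Interleukin-1 is made as Il1a and Il1b and signals through IL1R1 with the accessory protein IL1RAP, MYD88 and the IRAK kinases to NF-kB. IL1RN occupies the same receptor without signalling. IL-33 is a nuclear cytokine of stromal and endothelial cells that is released on damage and signals through the receptor encoded by Il1rl1, which mast cells and other immune cells carry. In the ovary, interleukin-1 and adhesion molecules are known around ovulation and in the regression of the corpus luteum. In the testis, VCAM1 is known as a surface marker of mature Leydig cells, the male counterpart of theca cells.

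The libraries held from 26544745 to 72362981 reads assigned to genes, and the values below are normalized counts, that is reads divided by 1 size factor per library, so that 1 read was worth between 0.647 and 1.70 normalized counts. Markers of granulosa cells summed to at least 76001 normalized counts per ovary and luteal markers to at least 407599, as in ovarian tissue. Oviduct markers varied from 138 to 22480 summed normalized counts in HSD17B1-KI and from 149.9 to 224751 in WT and were highest in WT 1 and 8, and the fits with this score as a covariate stand beside the results for Vcam1 and Il1r1. In whole tissue, more cells of a type and more RNA per cell cannot be told apart, which holds for every difference below.

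**Figure D1:**
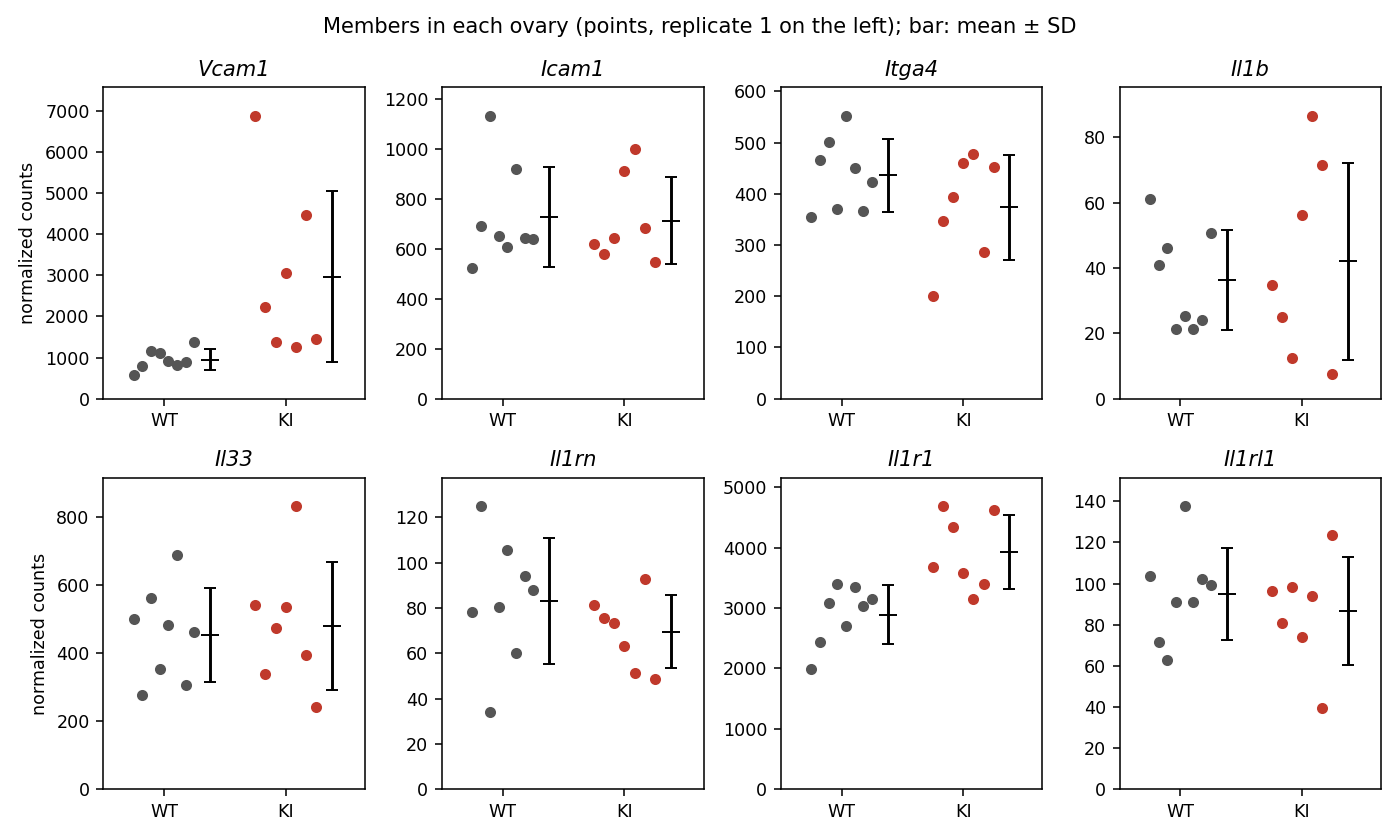
Normalized counts (linear axes from 0) of the 8 genes in each ovary, 8 WT in grey and 7 HSD17B1-KI (KI) in red, ordered by replicate number within a genotype, with the mean and SD as a bar beside the points. For Vcam1 and Il1r1, 6 of 7 HSD17B1-KI points lie above every WT point, and for the other 6 genes the points of the genotypes overlap.

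Vcam1 and Il1r1 were higher in HSD17B1-KI ovaries than in WT when tested as single genes and with DESeq2, but not across all genes with limma-trend or edgeR, and for the other 6 genes no difference beyond the spread between mice was found. Vcam1 (ENSMUSG00000027962) lies on chromosome 3 from 116109949 to 116129688 on the minus strand. Its lowest, median and highest levels were 1258, 2241 and 6886 normalized counts in HSD17B1-KI, against 567, 908 and 1370.4 in WT. The WT ovaries stayed within a 2.42-fold range while the HSD17B1-KI ovaries spanned 5.47-fold, with HSD17B1-KI 1 and 6 on top and HSD17B1-KI 3, 5 and 7 close to the highest WT ovary. HSD17B1-KI 5 was the one HSD17B1-KI ovary inside the WT range. The means were 2963 ± 2078 (SD, n = 7) and 953 ± 249.8 (SD, n = 8), a ratio of 3.11. Taken alone, Vcam1 differed between the genotypes in its mean log2 value (exact permutation test over 6435 splits, two-sided, p = 0.000311). The ratio of means was still smaller than the 5.47-fold range among the HSD17B1-KI ovaries. The difference in mean log2 value held without each mouse in turn (exact permutation p from 0.000333 to 0.00117).

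Across all genes, limma-trend gave Vcam1 a log2 fold change of 1.41 (SE 0.33, 95% confidence interval 0.71 to 2.11) and an adjusted p of 0.0949, which misses the threshold of 0.05. It ranked 136 by p among the 21525 genes tested. DESeq2 on the recovered reads called it differentially expressed (DE), with an adjusted p of 0.000361, and edgeR did not (adjusted p = 0.0625). The study itself used DESeq2 on these libraries and reported Vcam1 as higher, so the DESeq2 call is not independent of that report. With limma-trend Vcam1 passed only when HSD17B1-KI 5 was left out (adjusted p = 0.0390), whereas with DESeq2 it passed in all 15 fits that left out 1 mouse, at adjusted p-values up to 0.00341. Without HSD17B1-KI 1, the highest ovary, the limma-trend log2 fold change was 1.16. Leaving aside the replicate block, its adjusted p over the alternatives lay between 1.93e-05 (DESeq2 without HSD17B1-KI 5) and 0.208 (limma-trend without HSD17B1-KI 6).

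Il1r1 (ENSMUSG00000026072), the signalling receptor of interleukin-1, lies on chromosome 1 from 40225080 to 40317257 on the plus strand. Its levels ran from 3154 over a median of 3676 to 4684 normalized counts in HSD17B1-KI and from 1987 over 3054 to 3394 in WT. Again 6 of 7 HSD17B1-KI ovaries were above every WT ovary, with HSD17B1-KI 5 inside the WT range and WT 1 the lowest of all. The means of 3923 ± 617 (SD, n = 7) and 2892 ± 485.5 (SD, n = 8) gave a ratio of 1.36 (exact permutation test, p = 0.0022). Its limma-trend log2 fold change was 0.44 (SE 0.12, 95% confidence interval 0.19 to 0.70, adjusted p = 0.163). DESeq2 called it DE (adjusted p = 0.0349), but with 1 of the 15 mice omitted in turn it passed 8 times, with an adjusted p up to 0.127 without HSD17B1-KI 2. Leaving aside the replicate block, the alternatives put its adjusted p between 0.0116 (DESeq2 without HSD17B1-KI 5) and 0.336 (limma-trend without HSD17B1-KI 2). A small gene model of unknown type, RP24-317P24.1, overlaps Il1r1 on the same strand, with at most 11.9 normalized counts in any ovary.

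With limma-trend 0 of the 8 genes were DE, where 0.209% of all genes tested were higher and 0.00465% lower. An unadjusted p under 0.05 was found for 2 of the 8, Vcam1 and Il1r1, both higher, and 5.36% of all genes were higher and 4.64% lower by that measure. With DESeq2 the same 2 were DE, against 1.59% of all genes higher and 0.718% lower, and with edgeR 0 were. None of the 8 had every HSD17B1-KI ovary above every WT ovary, which held for 0.274% of all genes, or below, which held for 0.0511%. At least 6 HSD17B1-KI ovaries above every WT ovary were found for 0.938% of all genes and for 2 of the 8. The cutoff of 6 is the number that Vcam1 and Il1r1 themselves reached, so this comparison is not independent of their values.

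**Figure D2:**
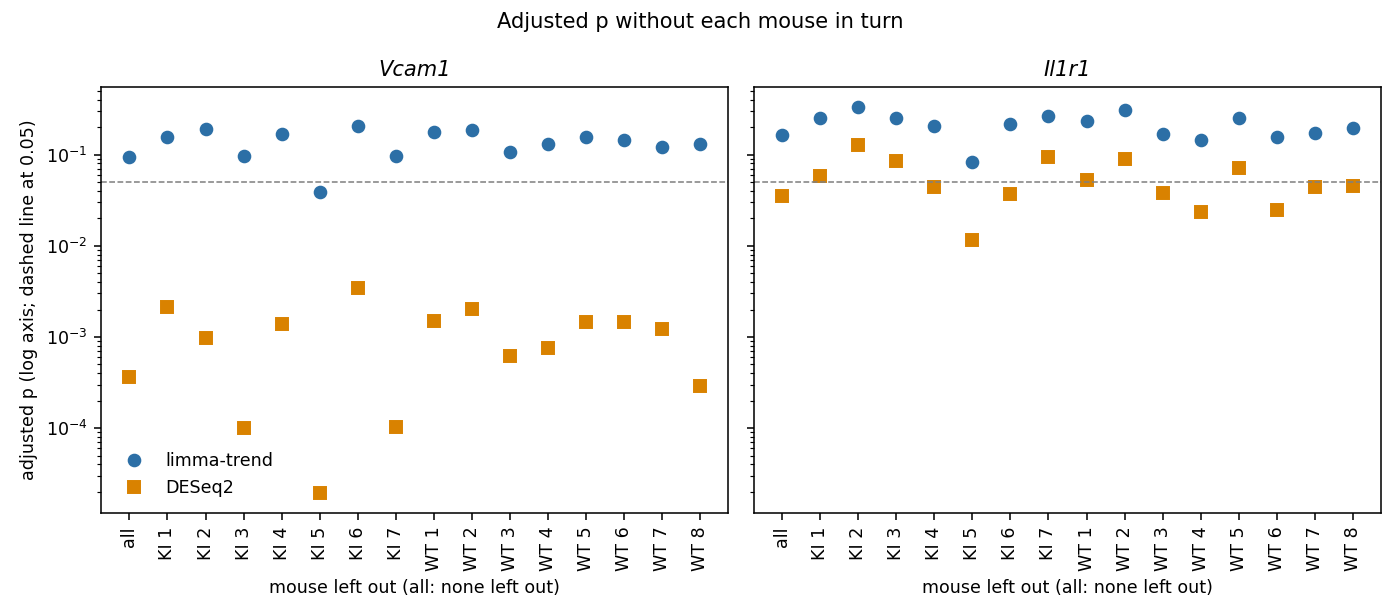
Adjusted p (log axis) of Vcam1 and Il1r1 with all mice and without each mouse in turn, from limma-trend (blue points) and DESeq2 (orange squares), with a dashed line at 0.05. DESeq2 keeps Vcam1 under the line in all fits, whereas Il1r1 crosses it and limma-trend leaves both above it apart from Vcam1 without HSD17B1-KI 5.

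Promoter sequence was read for the 7 of the 8 genes that the RefSeq promoter table of GRCm38.p6 lists, which leaves out Vcam1. The 250 bases before each listed start were searched on both strands for NF-kB (GGGNNTTCC), for the steroidogenic factor SF-1, the product of Nr5a1 (CAAGGTC), and for the half-site of the androgen receptor (AGAACA). The promoters of Il1r1, the receptor gene that was DE with DESeq2 and not with limma-trend, are shown with that of Icam1, the other adhesion molecule, which held none of these letters. A site that departs from the letters by a single base is not found by such a search, so that nothing follows from a missing match. Capitals mark the matches, and each sequence reads 5′ to 3′ on the plus strand, which is that of the gene.
Il1r1, first start, chr1:40224830-40225079: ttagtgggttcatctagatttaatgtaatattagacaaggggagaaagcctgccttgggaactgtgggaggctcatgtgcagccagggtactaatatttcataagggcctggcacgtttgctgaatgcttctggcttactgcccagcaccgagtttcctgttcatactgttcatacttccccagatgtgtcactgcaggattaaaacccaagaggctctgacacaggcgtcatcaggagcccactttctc
Il1r1, second start, chr1:40266336-40266585: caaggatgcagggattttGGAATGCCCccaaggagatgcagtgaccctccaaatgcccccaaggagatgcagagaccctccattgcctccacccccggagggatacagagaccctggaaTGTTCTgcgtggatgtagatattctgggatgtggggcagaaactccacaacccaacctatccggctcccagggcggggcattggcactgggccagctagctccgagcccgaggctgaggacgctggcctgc
Icam1, chr9:21015690-21015939: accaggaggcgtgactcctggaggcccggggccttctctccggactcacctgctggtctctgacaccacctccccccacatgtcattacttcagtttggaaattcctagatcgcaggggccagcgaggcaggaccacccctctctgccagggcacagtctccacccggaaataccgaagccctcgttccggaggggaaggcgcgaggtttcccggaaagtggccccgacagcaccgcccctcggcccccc

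The second start of Il1r1 was the only listed start of the 7 genes with any match. The NF-kB letters were found there on the minus strand, 232 to 224 bases before the start, and the androgen receptor half-site, also on the minus strand, 131 to 126 bases before it. The matches do not overlap. Of 32851 promoters in the table cut to the same length, 4.98% held the NF-kB letters, 3.32% those of SF-1 and 16.1% the half-site, so that a match of the last kind is common. Several of the 7 genes had more than 1 listed start. Whether either match exceeds these shares was not tested. The deposited table gives 1 value per gene and cannot tell which start of Il1r1 was used.

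Icam1 (ENSMUSG00000037405), on chromosome 9 from 21015985 to 21028817, binds beta 2 integrins of leukocytes. It was between 548 and 999 normalized counts in HSD17B1-KI, with a median of 646, and between 523 and 1134 in WT, with a median of 648. HSD17B1-KI 4 and 5 and WT 3 and 6 were the 4 highest, and all HSD17B1-KI ovaries lay inside the WT range. The log2 fold change was -0.02 (SE 0.17), with an adjusted p of 0.979 by limma-trend, and its 95% confidence interval of -0.38 to 0.34 lies below the lower bound of Vcam1. Itga4 (ENSMUSG00000027009), on chromosome 2 from 79255426 to 79333123, encodes the integrin chain that binds VCAM1. Its lowest, median and highest levels were 199.8, 394 and 478 normalized counts in HSD17B1-KI and 355, 437 and 553 in WT. The groups overlapped, although 3 HSD17B1-KI ovaries were below every WT ovary, the lowest being HSD17B1-KI 1 with the most Vcam1. At a log2 fold change of -0.26 (SE 0.17, adjusted p = 0.668 by limma-trend), the difference was within the spread between mice, and it was -0.12 without HSD17B1-KI 1. Cerkl lies across the end of Itga4 on the opposite strand, and since the libraries were stranded but it is not stated whether the counting used the strand, their reads may not be fully separated.

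Of the ligands, Il1b (ENSMUSG00000027398), on chromosome 2 from 129364570 to 129371139, had few reads and the widest spread. Its counts ran from 7.59 over a median of 34.8 to 86.6 in HSD17B1-KI and from 21.2 over 33.0 to 61.1 in WT. In HSD17B1-KI, ovaries 4, 5 and 6 were high and ovaries 3 and 7 low, so that the range was 11.4-fold, and the WT range lay inside it. The log2 fold change of -0.09 (SE 0.47, adjusted p = 0.969 by limma-trend) was positive with edgeR and DESeq2, at 0.21 with each, and no direction can be given. The antisense gene Il1bos overlaps Il1b, with a mean of 6.62 normalized counts in HSD17B1-KI and 12.2 in WT, which leaves the counts of Il1b uncertain. Il33 (ENSMUSG00000024810), on chromosome 19 from 29925114 to 29960718, was between 241 and 832 normalized counts in HSD17B1-KI and between 278 and 688 in WT, with medians of 474 and 472. HSD17B1-KI 5 was the highest ovary and HSD17B1-KI 7 the lowest, and the log2 fold change was 0.04 (SE 0.24), with an adjusted p of 0.970 by limma-trend.

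Il1rn (ENSMUSG00000026981), on chromosome 2 from 24336853 to 24351494, encodes the receptor antagonist. It ranged from 48.8 to 92.9 normalized counts in HSD17B1-KI, with a median of 73.5, and from 34.1 to 125 in WT, with a median of 84.1. All HSD17B1-KI ovaries lay inside the WT range (log2 fold change -0.20, SE 0.24, adjusted p = 0.833 by limma-trend), and the log2 fold change was -0.37 without WT 3 and -0.11 without WT 2. Il1rl1 (ENSMUSG00000026069), the IL-33 receptor on chromosome 1 from 40429570 to 40465415, stands near Il1r1 in the receptor cluster. Its median was 93.9 normalized counts in HSD17B1-KI (39.3 to 124) and 95.2 in WT (62.7 to 138), with HSD17B1-KI 6 alone below the WT range and a log2 fold change of -0.17 (SE 0.22, adjusted p = 0.855 by limma-trend).

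Per kilobase of exon, Il1r1 was the highest of the 8 genes in WT, at 454 ± 76.3 normalized counts per kilobase (SD, n = 8). Icam1 at 167 ± 45.8, Il33 at 157 ± 47.7 and Vcam1 at 107 ± 28.2 followed, and neighbours among these 3 overlapped within 1 SD. Itga4 was at 31.2 ± 5.04, and Il1b (19.0 ± 8.07), Il1rn (15 ± 4.99) and Il1rl1 (13.8 ± 3.28) were lowest and overlapped with each other. In HSD17B1-KI, Vcam1 at 334 ± 234 normalized counts per kilobase (SD, n = 7) stood second by its mean to Il1r1 at 617 ± 96.9. Its SD overlapped with those of Il1r1, of Il33 at 166 ± 65.6 and of Icam1 at 163 ± 39.9. The genes were not compared within each ovary, so that Vcam1 is not placed above or below any of these 3. The other 4 genes lay between 12.6 and 26.7. Il1r1 had the highest mean per exon length in both genotypes, and both of its ligand genes measured here, Il1a and Il1b, had few reads.

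**Figure D3:**
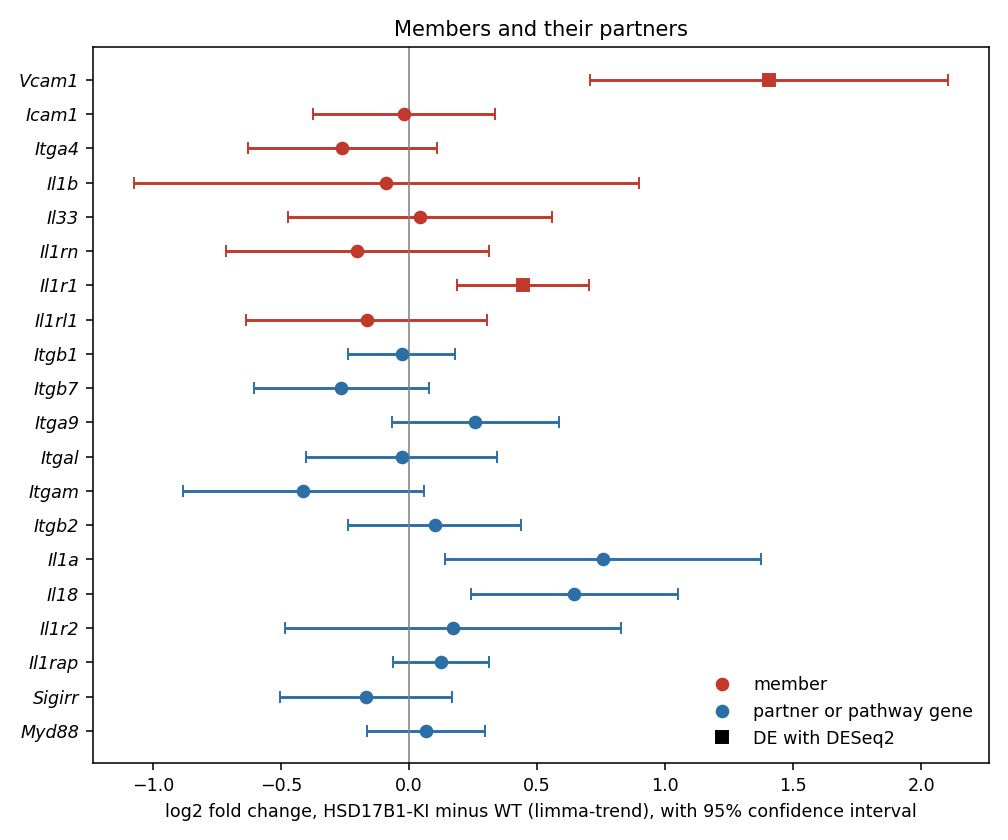
Log2 fold change between HSD17B1-KI and WT from limma-trend (points) with its 95% confidence interval (bars) for the 8 genes in red and for 12 integrins, ligands, receptors and adaptors in blue, with squares for genes that were DE with DESeq2. Vcam1 at 1.41 lies to the right of every other gene shown, and Il1r1 at 0.44 is the other square.

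The remaining interleukin-1 pathway genes were centred near the median of all genes. Of 32 other ligands, receptors and signalling genes, 29 had enough reads to be tested. With limma-trend 0 were DE, and 3 had an unadjusted p under 0.05, all higher, where 5.36% of all genes tested were higher and 4.64% lower. With DESeq2 0 were DE. The median log2 fold change was -0.01, against -0.02 over all genes tested, with 14 values above 0 and 15 below. The 3 genes were Il1a, which encodes interleukin-1 alpha (34.5 ± 12 normalized counts in HSD17B1-KI and 20.9 ± 9.35 in WT, log2 fold change 0.76), Il18, a related cytokine (1021 ± 174 and 677 ± 244, log2 fold change 0.65), and the kinase adaptor Tab1 (log2 fold change 0.14), with limma-trend adjusted p-values of 0.375, 0.204 and 0.475. Il18 was higher in each HSD17B1-KI ovary than in 6 of the 8 WT ovaries, and WT 3 reached 1193.

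The decoy receptor Il1r2 had a log2 fold change of 0.17 and the accessory chain Il1rap one of 0.12, the inhibitory receptor Sigirr -0.17 and the adaptor Myd88 0.07 (limma-trend adjusted p from 0.690 to 0.895). The lowest value, -1.68, was that of the ligand Il36b, listed under its older symbol Il1f8, which had 93.3, 48.4 and 33.4 normalized counts in WT 1, 4 and 8 and at most 1.22 in every other ovary (limma-trend adjusted p = 0.648). WT 1, 4 and 8 were also the 3 ovaries with the most Alcam, an adhesion molecule of epithelia, and with the highest score of surface epithelium markers (1.08, 0.40 and 0.96). The oviduct score was highest in WT 1 and 8 as well (5.60 and 5.31) and was -0.10 in WT 4. The part of surface epithelium or oviduct cells in the values of Il36b and Alcam was not tested.

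Among 22 adhesion genes that are not members, 0 were DE with limma-trend and 1 was lower with DESeq2, against 0.718% of all genes. Their median log2 fold change was -0.15, and 18 of the 22 were below 0, where 11876 of all 21525 genes were. Of the 22, 3 had an unadjusted p under 0.05, all lower, where 4.64% of all genes tested were lower and 5.36% higher. F11r, which encodes the junctional adhesion molecule JAM-A, fell with DESeq2 (adjusted p = 0.0186) and not with limma-trend (4821 ± 424 normalized counts in HSD17B1-KI, n = 7, and 6232 ± 917 in WT, n = 8, log2 fold change -0.36, SE 0.09, adjusted p = 0.136). The 2 others were Mcam, an endothelial and smooth muscle molecule (log2 fold change -0.38), and Alcam (log2 fold change -0.72), with limma-trend adjusted p-values of 0.298 and 0.401. The partners of Itga4 in the VCAM1 receptors had log2 fold changes of -0.03 for Itgb1 and -0.26 for Itgb7, and Itga9, whose integrin also binds VCAM1, had the highest value of the list at 0.26. For the ICAM1 receptors the values were -0.03 for Itgal, -0.41 for Itgam and 0.10 for Itgb2. None of these 6 integrin genes had an unadjusted p under 0.05 with limma-trend.

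Of 16 inflammatory and NF-kB target genes, 0 were DE with limma-trend and 0 with DESeq2, with a median log2 fold change of 0.11. An unadjusted p under 0.05 was found for 2, of which 1 was higher and 1 lower, where 5.36% of all genes tested were higher and 4.64% lower. The higher was Birc3, an inhibitor of apoptosis and NF-kB target, at 1249 ± 63.8 normalized counts in HSD17B1-KI and 1122 ± 58.6 in WT (log2 fold change 0.15, limma-trend adjusted p = 0.309), and 6 of 7 HSD17B1-KI ovaries were above every WT ovary. The lower was Saa3, an acute-phase protein (127 ± 55.5 and 278 ± 197, log2 fold change -0.88, limma-trend adjusted p = 0.483). Tnf had 16.2 ± 4.61 and 14.2 ± 7.17 normalized counts and Nfkbia, the inhibitor that NF-kB itself induces, 3034 ± 441 and 2897 ± 289.7, in HSD17B1-KI and WT in that order, with log2 fold changes of 0.28 and 0.06. The cytokine Ccl3 had the highest value among genes with at least 10 normalized counts, at 0.36.

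Of 9 theca and steroidogenic genes, 0 were DE with limma-trend and 2, Insl3 and Nr5a1, were higher with DESeq2 (adjusted p = 0.00234 and 0.0271), against 1.59% of all genes. All 9 log2 fold changes were above 0, where 9649 of all 21525 genes were, with a median of 0.66, from 0.04 for the hedgehog target Gli1 to 1.88 for Cyp17a1, the enzyme of androgen synthesis. The study had picked several of these genes from the same libraries, so this direction is not independent evidence. The same limit holds for the test of the theca score below, with all mice and without 1 mouse.

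The mean of the centred log2 values of each list was compared between genotypes with an exact permutation test, two-sided, and adjusted over 17 lists. The theca score was 0.67 higher in HSD17B1-KI (exact permutation p = 0.025, adjusted p = 0.146), with 5 HSD17B1-KI ovaries above every WT ovary and HSD17B1-KI 4 and 5 inside the WT range. In the same exact permutation test the inflammatory score differed by 0.057 (p = 0.592), that of the interleukin-1 pathway by -0.020 (p = 0.705) and that of adhesion genes by -0.19 (p = 0.032, adjusted p = 0.146). Endothelial markers, whose cells are the textbook site of Vcam1 and Icam1, differed by 0.068 (p = 0.480) and macrophage markers by 0.15 (p = 0.388), in exact permutation tests. Neutrophil markers, with at most 300.1 summed normalized counts, differed by -0.52 (exact permutation p = 0.017) and adipose markers by -1.22 (exact permutation p = 0.034), with adjusted p = 0.146 for each. The adipose markers did not all fall, since 4 of the 5 log2 fold changes were below 0 and that of Plin1 was 0.44. Without 1 mouse, the unadjusted exact permutation p was at most 0.049 for theca and 0.037 for neutrophil markers. It reached 0.069 for adhesion genes and 0.077 for adipose markers. Differences of the other lists were 0.065 for lymphocytes, 0.43 for mast cells, 0.30 for granulosa cells, 0.29 for luteal cells, 0.016 for stroma, -0.43 for smooth muscle, -0.47 for surface epithelium, -1.09 for oviduct and 0.17 for erythroid cells, with unadjusted exact permutation p-values from 0.052 to 0.928. After adjustment, 0 of the 17 lists passed. Several differences hung on single mice: that of erythroid cells was 0.35 without WT 5 (exact permutation p = 0.042) and 0.093 without WT 6, that of mast cells 0.63 without HSD17B1-KI 6 (exact permutation p = 0.033) and 0.24 without HSD17B1-KI 1, that of luteal cells 0.14 to 0.52 and that of oviduct -1.76 to -0.36 over the mice left out. Likewise, endothelial markers ran from 0.020 to 0.099, macrophage markers from 0.065 to 0.233 and granulosa markers from 0.187 to 0.470.

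With the endothelial score as a covariate the log2 fold change of Vcam1 was 1.47 (adjusted p = 0.0741 with limma-trend), and with the oviduct score it was 1.44 (adjusted p = 0.0911 with limma-trend). Those of Il1r1 were 0.45 and 0.42 (adjusted p = 0.137 and 0.159 with limma-trend).

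Whether Vcam1 follows inflammatory or theca genes was examined within each genotype, since the genotypes themselves differ in Vcam1. Over 17 lists and both genotypes, 34 relations were computed with exact permutations of the pairings, two-sided, and 0 had an adjusted p under 0.05. In HSD17B1-KI the theca score fell into 5 ovaries between 0.51 and 0.82 and 2 ovaries, HSD17B1-KI 4 and 5, at -0.50 and -0.56. The correlation of Vcam1 with it over all 7 (r = 0.194, exact permutation p = 0.690, rho = 0.321, exact permutation p = 0.498) depended on these 2 ovaries in opposite ways, since r was -0.153 without HSD17B1-KI 5, 0.371 without HSD17B1-KI 4 and -0.323 without both (n = 5). In WT r was 0.022 (exact permutation p = 0.957, rho = 0.000, exact permutation p = 1.0), and 0.476 without WT 3 and 6 (n = 6). Of the 2 HSD17B1-KI ovaries low in the theca score, HSD17B1-KI 4 had 3067 normalized counts of Vcam1, more than any WT ovary, and HSD17B1-KI 5 had 1258, the fewest of its genotype.

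With the inflammatory score, Vcam1 had r = 0.729 in HSD17B1-KI (n = 7, exact permutation p = 0.068, adjusted p = 0.736, rho = 0.607, exact permutation p = 0.167) and r = -0.442 in WT (n = 8, exact permutation p = 0.277, adjusted p = 0.811, rho = -0.429, exact permutation p = 0.299). The value in HSD17B1-KI rested on HSD17B1-KI 1, the highest in both, without which r was 0.476, and without the 2 ovaries farthest from the median, HSD17B1-KI 1 and 7, it was 0.362 (n = 5). In WT, r was -0.838 without WT 2 and 3 (n = 6, exact permutation p = 0.035, unadjusted and outside the 34 relations). The signs in the genotypes were opposite, and the difference between them was not tested. The lowest unadjusted p among the 34 relations was with luteal markers in HSD17B1-KI (r = -0.797, exact permutation p = 0.025, adjusted p = 0.736, rho = -0.821, exact permutation p = 0.034). It was -0.910 without HSD17B1-KI 6 and 7 (n = 5), and r was -0.549 in WT (exact permutation p = 0.158, rho = -0.571, exact permutation p = 0.151).

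**Figure D4:**
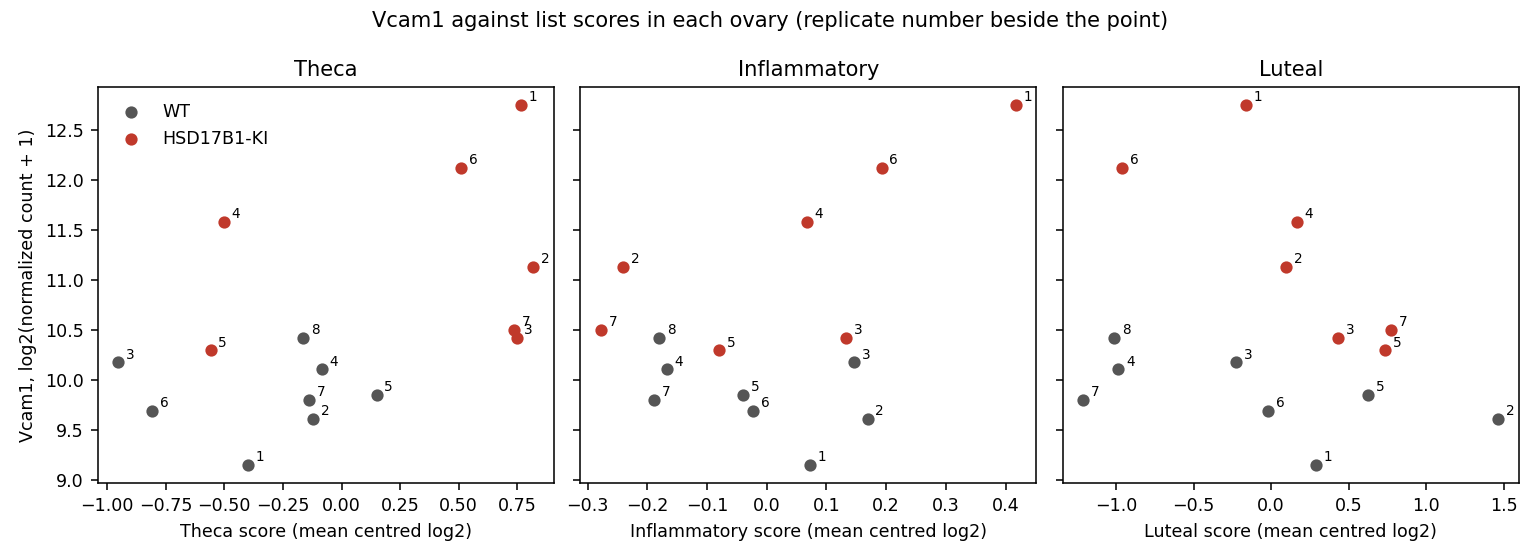
Vcam1 as log2(normalized count + 1) against the theca, inflammatory and luteal scores (mean of centred log2 values) of the same ovary, 8 WT in grey and 7 HSD17B1-KI in red, with the replicate number beside each point. HSD17B1-KI 4 and 5 lie apart on the theca axis, at -0.50 and -0.56, and HSD17B1-KI 1 and 6 have the most Vcam1.

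Of the 4 single genes compared, Nfkbia had the highest r with Vcam1 in both genotypes. In HSD17B1-KI, r was 0.857 (n = 7, exact permutation p = 0.013, adjusted over 8 relations p = 0.105, rho = 0.821, exact permutation p = 0.034), and it was 0.826 without HSD17B1-KI 6 and 1 (n = 5). In WT, r was 0.709 (n = 8, exact permutation p = 0.047, adjusted p = 0.189, rho = 0.667, exact permutation p = 0.083), and 0.651 without WT 8 and 2 (n = 6). Neither passed after adjustment. Leaving out 1 mouse kept r between 0.831 and 0.918 in HSD17B1-KI and between 0.584 and 0.922 in WT. The range of Nfkbia itself was small, from 2556 to 3822 normalized counts in HSD17B1-KI and from 2430.2 to 3285 in WT, and its adjusted p between genotypes was 0.868 by limma-trend.

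Insl3, the peptide hormone of theca and Leydig cells, had r = 0.631 with Vcam1 in HSD17B1-KI (exact permutation p = 0.134, rho = 0.643, exact permutation p = 0.139), 0.901 without HSD17B1-KI 4, 0.328 without HSD17B1-KI 1 and 0.802 without both (n = 5), and -0.016 in WT (exact permutation p = 0.971, rho = 0.048, exact permutation p = 0.935). Its counts were between 29.4 and 131 in HSD17B1-KI and between 18.1 and 37.0 in WT. For Cyp17a1, r was 0.196 in HSD17B1-KI (exact permutation p = 0.702, rho = 0.036, exact permutation p = 0.963) and 0.171 in WT (exact permutation p = 0.677, rho = 0.381, exact permutation p = 0.360). In each genotype 2 ovaries had far less Cyp17a1 than the others, HSD17B1-KI 4 and 5 at 224 and 254 and WT 3 and 6 at 107 and 141 normalized counts, and without them r was -0.297 (n = 5) and 0.831 (n = 6, exact permutation p = 0.036). The p of this WT subset is unadjusted and lies outside the adjusted relations. Tnf had r = 0.387 and 0.318 in HSD17B1-KI and WT (exact permutation p = 0.393 and 0.445, rho = 0.321 and 0.238, exact permutation p = 0.498 and 0.582) and 0.333 and 0.206 without the 2 farthest ovaries, at counts of 7.08 to 26.4 that leave it imprecise.

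**Figure D5:**
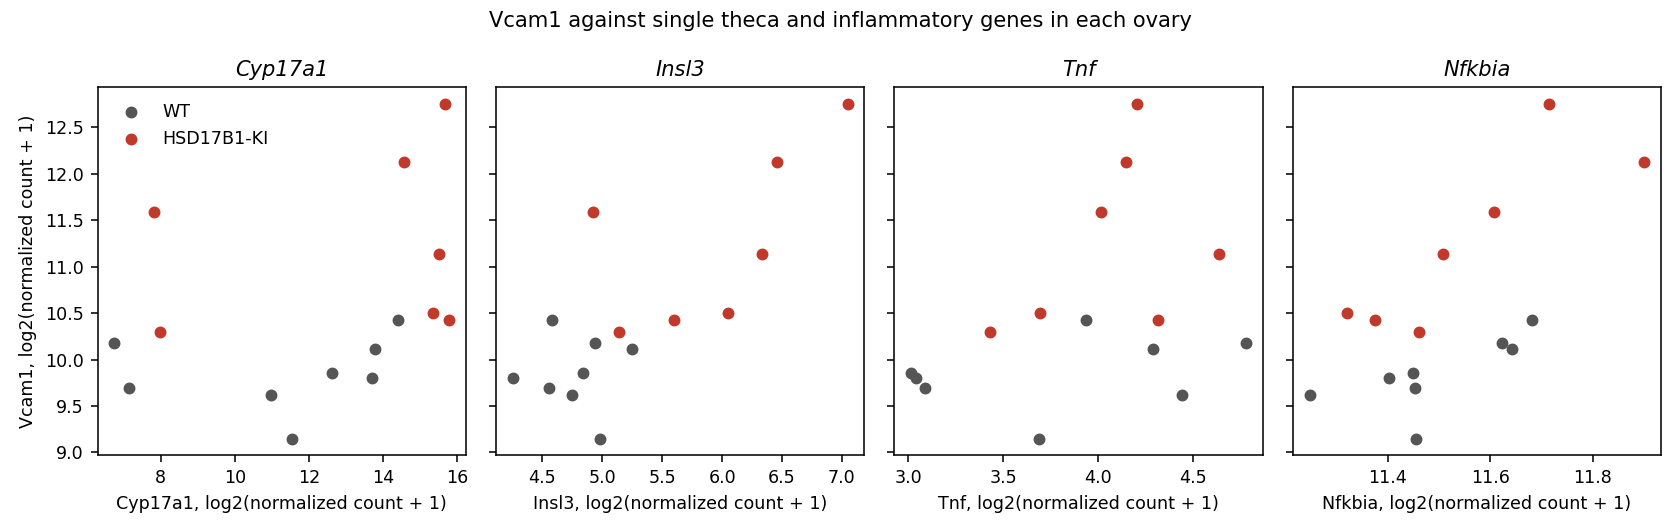
Vcam1 against Cyp17a1, Insl3, Tnf and Nfkbia in the same ovary, all as log2(normalized count + 1), 8 WT in grey and 7 HSD17B1-KI in red. Nfkbia has the highest r with Vcam1 in both genotypes (r = 0.857 and 0.709), whereas Cyp17a1 falls into 2 low ovaries and the rest in each genotype.

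Among the 8 genes themselves, 56 relations were computed (28 pairs in each genotype), and 0 passed after adjustment. Il1b and its receptor gene Il1r1 had the lowest r among HSD17B1-KI ovaries (r = -0.896, n = 7, exact permutation p = 0.010, adjusted p = 0.241, rho = -0.893, exact permutation p = 0.012), and without HSD17B1-KI 2 and 7 r was -0.978 (n = 5). In WT the r of this pair was -0.618 (n = 8, exact permutation p = 0.102, rho = -0.595, exact permutation p = 0.132), but it rested on WT 1 and 2, since r was -0.330 without WT 1 and -0.130 without both (n = 6). Icam1 and Il33 had the highest r among pairs in HSD17B1-KI (r = 0.826, exact permutation p = 0.017, adjusted p = 0.241, rho = 0.75, exact permutation p = 0.066), and r was 0.533 without HSD17B1-KI 7 and 5 (n = 5) and 0.437 in WT (n = 8, exact permutation p = 0.281, rho = 0.167, exact permutation p = 0.703). Vcam1 and its receptor chain Itga4 had r = -0.849 in HSD17B1-KI (exact permutation p = 0.013, adjusted p = 0.241, rho = -0.75, exact permutation p = 0.066), which rested on HSD17B1-KI 1 and 6, since without them r was -0.191 (n = 5). In WT the r of Vcam1 and Itga4 was 0.272 (n = 8, exact permutation p = 0.518, rho = 0.310, exact permutation p = 0.462), and the difference between genotypes was not tested. Vcam1 and Il1r1, the 2 genes that were DE with DESeq2 and not with limma-trend or edgeR, had r = 0.776 in WT (exact permutation p = 0.023, adjusted p = 0.241, rho = 0.619, exact permutation p = 0.115), resting on WT 1 and 2 with 0.150 without them (n = 6). In HSD17B1-KI the r of this pair was -0.305 (n = 7, exact permutation p = 0.489, rho = 0.000, exact permutation p = 1.0). It was -0.784 without HSD17B1-KI 5 and -0.160 without HSD17B1-KI 7. For this pair too, the difference between genotypes was not tested.

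The other 7 genes were also set against the 17 list scores, in 238 relations of which 0 passed after adjustment. Itga4 had a high r with macrophage markers in both genotypes (r = 0.900 in HSD17B1-KI, n = 7, exact permutation p = 0.0036, rho = 0.964, and r = 0.890 in WT, n = 8, exact permutation p = 0.0041, rho = 0.881, adjusted p = 0.181 for each), and without the 2 farthest ovaries r was 0.852 and 0.684. The lowest p was that of Itga4 with lymphocyte markers in WT (r = 0.916, exact permutation p = 0.000595, adjusted p = 0.142, rho = 0.976). The sign was the opposite in HSD17B1-KI (r = -0.507, exact permutation p = 0.243, adjusted p = 0.567, rho = -0.75), where r was -0.965 without HSD17B1-KI 3 and 6 (n = 5), and the difference between genotypes was not tested. Icam1 had a negative r with the theca score in HSD17B1-KI (r = -0.968, exact permutation p = 0.0028, adjusted p = 0.181, rho = -0.786), and r was -0.688 without HSD17B1-KI 5 and 4, the 2 ovaries low in Cyp17a1 and high in Icam1. In WT, r was -0.799 (exact permutation p = 0.027, adjusted p = 0.415, rho = -0.429), and it turned to 0.487 without WT 3 and 6 (n = 6), the WT ovaries lowest in Cyp17a1 and highest in Icam1 (1134 and 918 normalized counts). Il1rn had a positive r with the theca score in WT (r = 0.888, exact permutation p = 0.0026, rho = 0.810), and 0.511 without WT 3 and 6. In HSD17B1-KI the r of Il1rn was 0.453 (exact permutation p = 0.301, rho = 0.429), and -0.424 without HSD17B1-KI 5 and 4.

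The genes most like each member over the 15 ovaries, after the genotype means were removed, were ranked among 15058 genes whose mean reached 50 normalized counts (15059 for Il1b), with no test. Closest to Vcam1 were Svs5 (r = 0.901), Map4, Sil1, Upf3a, Sf3b2, Ptgr1, Gstm1 and Myl12b (r = 0.857). For Ptgr1 and Gstm1 the likeness came mainly from HSD17B1-KI (r = 0.950 and 0.946, n = 7), with r = 0.393 for each in WT (n = 8), whereas for the other 6 r in WT was between 0.739 and 0.925. Svs5, which encodes a seminal vesicle secretory protein, had 758 normalized counts in HSD17B1-KI 1 and a mean of 247 ± 244 (SD, n = 7) against 83.5 ± 27.8 (SD, n = 8) in WT, so that HSD17B1-KI 1 was the highest ovary for both genes. Gstm1, a glutathione transferase (adjusted p = 0.000444), Ptgr1, a prostaglandin reductase (0.00679), Svs5 (0.0197) and Myl12b (0.0373) were DE with DESeq2 and not with limma-trend, and reads of Gstm1 could be shared with its paralogs. Icam1 was most like Gbp2, an interferon-induced GTPase (r = 0.951), Tcn2 and Traf2. Itga4 was most like Dock10, the lymphoid transcription factor Ikzf1 (r = 0.952) and Dock2, which are genes of leukocytes. Il33 was most like Igfbp6 (r = 0.916), Dhdds and Ly6e. Il1r1 was most like Men1, Arhgef18 and Pomt2 (r = 0.915 for each). Il1b was most like Tcea3, Mkks and Pmm1, Il1rn like Igfbp3, RP24-295G1.1 and Zfp438, and Il1rl1 like Adcy1, Zbtb7c and Fasn, with r from 0.744 to 0.872.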

How the data were processed

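Ovarian mRNA libraries were made with the TruSeq Stranded mRNA kit. Per the labels and the paper's methods, the authors trimmed the reads with Skewer, aligned them to mm10 with STAR 2.7.3 and tested gene counts with DESeq2. The counting program, its annotation and its use of strand are not given in the sources used here. The deposited signal is counts divided by 1 size factor per library. Dividing by the smallest step of each library gave whole reads for 100% of values (tolerance 0.01 reads), and these were used for edgeR and DESeq2.

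Log2(normalized count + 1) was tested with limma-trend where the mean reached 2 normalized counts, comparing the genotypes with no covariate (two-sided), and p was adjusted by Benjamini-Hochberg over 21525 genes, with 0.05 as the threshold. The added 1 lowers the fold changes of genes with few reads. On simulated data in which 200 genes, all averaging 50 normalized counts or more (Il1b has fewer), were changed 3-fold, 178 were found by limma and by edgeR and 182 by DESeq2, beside 10, 8 and 40 unchanged genes. Members and lists were chosen with earlier results of these data known. Besides the members, named genes are list genes DE with limma-trend or DESeq2 or with the highest or lowest fold change per list (where the mean reached 10), listed partners, Cyp17a1, Insl3, Tnf and Nfkbia, and the genes most like a member. Tab1, Mcam, Birc3 and the ovaries singled out were chosen after their values were seen. Marker lists whose extreme genes did not bear on a member are given by score only, apart from adipose markers. Positions are those of GENCODE M21 (GRCm38). Replicate numbers do not pair the mice. The labels do not say how the mice were spread over litters or cages, and p-values measure the spread between these mice. Versions were DESeq2 1.42.0, edgeR 4.0.16 and limma 3.58.1 in R 4.3.3, and SciPy 1.17.1 in Python 3.11.15.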

Additional observations from a re-analysis of the deposited data

Results flagged for a closer look

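Among 50 sets of values tested, the 8 genes and 17 list scores in each genotype, 1 held an ovary far from the others of its group, where chance alone gives about 1 in 20. It was the erythroid marker score of WT 5, at 1.19 against at most 0.17 in the other WT ovaries, and without it the difference between genotypes in this score was 0.35 in place of 0.17. None of the 8 genes had such an ovary in either genotype, including Vcam1, for which HSD17B1-KI 1 and 6 were both high.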

How the results depend on the processing

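The alternatives were other pseudocounts, filters, scalings and weights, edgeR, DESeq2, a replicate block, 2 marker scores as covariates, and leaving out each mouse, and DESeq2 without each mouse was added after seeing the data. The number of DE genes, 46 with limma-trend, was 28 with no filter and 28 with quantile normalization, 96 with the endothelial score, 125 with array weights, 146 at an adjusted p under 0.1 and 456 with DESeq2. Without 1 mouse it was 6 to 139 with limma-trend and 270.0 to 674 with DESeq2. The replicate numbers did not pair the mice, with correlations of deviations from -0.55 to 0.55 and only number 1 best matched to itself, and the replicate block gave 0 DE genes, with 1730 at an unadjusted p under 0.05 (adjusted p = 0.414 for Vcam1 and 0.452 for Il1r1). Vcam1 passed at an adjusted p under 0.1 (log2 fold change 1.41) and with DESeq2 (1.64), and its log2 fold change without 1 mouse was 1.16 to 1.57 with limma-trend and up to 1.77 with DESeq2. Il1r1 passed with array weights (0.52) and DESeq2 (0.44), and ran from 0.37 to 0.49 without 1 mouse.

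Small differences changed sign and the cause was not tested. With quantile normalization, Icam1 was at 0.065 and Il1b at 0.071. Il1b was also positive with edgeR and DESeq2 (0.21 each) and on mean counts (5.68). Il33 was at -0.000296 with array weights and -0.023 with the endothelial score, and the interleukin-1 pathway score at 0.00468 with a pseudocount of 10. Without 1 mouse the ranges were -0.11 to 0.078 for Icam1, -0.33 to 0.23 for Il1b, -0.26 to 0.0090 for Il1rl1, -0.10 to 0.19 for Il33, -0.044 to 0.0035 for the interleukin-1 pathway score, -0.0078 to 0.11 for the inflammatory, -0.015 to 0.12 for the lymphocyte and -0.10 to 0.084 for the stroma score. The r of Vcam1 with the theca score ran from -0.153 to 0.371 in HSD17B1-KI and from -0.090 to 0.359 in WT without 1 mouse, was -0.323 in HSD17B1-KI without the 2 farthest ovaries, and -0.264 in WT without Cyp17a1. With the inflammatory score it was 0.476 to 0.885 in HSD17B1-KI without 1 mouse and -0.838 in WT without the 2 farthest. With Cyp17a1 it was -0.128 to 0.394 in HSD17B1-KI and -0.097 to 0.524 in WT without 1 mouse, and -0.297 in HSD17B1-KI without the 2 farthest. With Insl3 in WT it was 0.048 by Spearman and -0.247 to 0.282 without 1 mouse. Quantile normalization moved the share of higher genes at an unadjusted p under 0.05 from 1154 of 2153 to 1478 of 2223. Genes with few reads, such as Il1b and Tnf, allow only large differences to be seen.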
